A study of Mus musculus with 21 samples.

Results

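The 9 genes described here mark T cells (Cd3d, Cd3e, Cd3g, Cd4 and Cd8a), natural killer (NK) and cytotoxic T cells (Nkg7 and Gzma) and B cells (Ms4a1 and Cd79a). They were taken by gene symbol from 55418 symbols. All 9 symbols were listed for all 21 mouse livers, though not every gene had a count in every liver. The livers came from mice whose hepatocytes lack Mboat7 (KO) and from wild-type mice (WT), on chow or on HFMCD, a high-fat diet deficient in choline and with little methionine. The groups were 4 KO and 4 WT livers on HFMCD, and 7 KO and 6 WT livers on chow. Mboat7 encodes an acyltransferase that adds arachidonic acid to lysophosphatidylinositol. HFMCD was fed for 6 weeks to mice aged 6 to 8 weeks at the start, and the chow mice were 10 weeks old. Every liver was perfused with PBS before RNA was taken from whole tissue. The labels do not name the line or promoter behind the hepatocyte deletion.

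T cells recognise peptides on other cells through an antigen receptor that signals through the CD3 chains, and the co-receptors CD4 and CD8 separate helper from killer T cells. NK cells and killer T cells store granules of perforin and granzymes, which they release onto target cells. B cells recognise antigen with a membrane immunoglobulin that signals through CD79 proteins, and they become plasma cells that secrete antibody. The liver holds many resident NK and T cells in its sinusoids, while hepatocytes make up most of its RNA.

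Libraries held 17502231 to 25822972 counts, of which albumin took 5.39% to 8.96%. Mboat7 averaged 18.9 CPM ± 2.24 in KO and 36.3 CPM ± 1.47 in WT livers on HFMCD (CPM, counts scaled to library size; SD, n = 4 each), a log2 fold change of -0.94 (edgeR adjusted p = 7.5e-06). On chow it averaged 21.3 CPM ± 1.77 in KO (SD, n = 7) and 36.2 CPM ± 2.72 in WT (SD, n = 6), a log2 fold change of -0.76 (edgeR adjusted p = 3.9e-06). Among the chow livers, KO replicates 1 and 7 and WT replicates 3 and 5 held 544 to 2270 counts of the mucosal gene Dmbt1, against 0 to 12 in the other 9 chow livers and 0 to 1 in the HFMCD livers. KO replicate 7 on chow also held 27241 counts of striated muscle genes, against 9 to 41 in each of the other 20 livers, and leaving it out changed no call of the 9 genes. Genes were called at an edgeR adjusted p under 0.05 over all 15677 genes tested. Nothing in the labels says more about the source of replicates than 1 animal number for each liver.

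All 9 genes were sparse. Together they took 5256 counts over the 21 livers, and single values ran from 0 to 129 counts. All 9 passed the filter on low counts. Cd8a would not have passed on the chow livers alone, so it entered the test through the diet group in which it was high.

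The CD3 genes lie side by side on chromosome 9 (GRCm38). Cd3g covers chr9:44969572-44980431 on the minus strand, Cd3d chr9:44981786-44987339 on the plus strand, and Cd3e chr9:44998740-45009627 on the minus strand. Cd3g and Cd3d are read away from each other. Exons of Cd3e share 135 bases with the model Gm48719 of the opposite strand, and the exons of the other 8 genes overlap no gene. RefSeq (GRCm38.p6) gave a promoter for 7 of the 9 genes. The 250 bases before the RefSeq start are shown for the CD3 genes, as a cluster whose members rose together on HFMCD, for the cytotoxic pair Nkg7 and Gzma, and for Cd79a, which was called in no comparison. For Cd3e, Nkg7 and Cd79a the RefSeq start lies inside the gene span given in this report, so part of the bases shown falls within that span. Capitals mark GGAA, the core of ETS factor motifs, and TGTGGT, the RUNX motif, on either strand, so that they also appear as TTCC and ACCACA. Sequences are written 5′ to 3′ in the direction of the gene.
Cd3d, chr9:44981536-44981785, plus strand: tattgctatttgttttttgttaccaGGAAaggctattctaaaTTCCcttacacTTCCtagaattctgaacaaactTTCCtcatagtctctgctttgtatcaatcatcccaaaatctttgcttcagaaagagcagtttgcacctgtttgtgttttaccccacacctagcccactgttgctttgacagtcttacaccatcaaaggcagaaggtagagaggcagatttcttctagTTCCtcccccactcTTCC
Cd3e, chr9:45009612-45009861, minus strand: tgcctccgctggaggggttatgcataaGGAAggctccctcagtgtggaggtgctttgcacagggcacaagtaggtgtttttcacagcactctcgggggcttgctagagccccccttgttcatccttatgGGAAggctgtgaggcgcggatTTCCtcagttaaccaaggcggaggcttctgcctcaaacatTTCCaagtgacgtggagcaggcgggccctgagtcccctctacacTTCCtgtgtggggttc
Cd3g, chr9:44980432-44980681, minus strand: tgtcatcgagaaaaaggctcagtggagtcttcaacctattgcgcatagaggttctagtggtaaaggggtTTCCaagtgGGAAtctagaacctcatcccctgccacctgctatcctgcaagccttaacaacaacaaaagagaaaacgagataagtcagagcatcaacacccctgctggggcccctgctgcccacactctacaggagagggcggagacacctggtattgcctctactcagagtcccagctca
Nkg7, chr7:43436888-43437137, plus strand: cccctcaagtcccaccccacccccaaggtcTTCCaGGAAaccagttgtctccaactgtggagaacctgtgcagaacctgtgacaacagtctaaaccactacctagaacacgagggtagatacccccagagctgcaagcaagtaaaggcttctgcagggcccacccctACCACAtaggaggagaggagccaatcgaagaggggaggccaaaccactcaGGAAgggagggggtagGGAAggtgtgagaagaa
Gzma, chr13:113100982-113101231, minus strand: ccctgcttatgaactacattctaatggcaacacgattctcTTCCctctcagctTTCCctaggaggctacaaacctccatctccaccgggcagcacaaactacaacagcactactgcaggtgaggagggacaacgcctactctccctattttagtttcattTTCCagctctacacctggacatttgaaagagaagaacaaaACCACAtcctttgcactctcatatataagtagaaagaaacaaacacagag
Cd79a, chr7:24897247-24897496, plus strand: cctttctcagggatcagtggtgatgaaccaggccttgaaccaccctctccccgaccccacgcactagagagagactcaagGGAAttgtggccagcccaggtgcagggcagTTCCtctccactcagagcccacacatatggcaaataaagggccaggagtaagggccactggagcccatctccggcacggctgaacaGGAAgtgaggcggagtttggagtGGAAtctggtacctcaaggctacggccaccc

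GGAA was found in all 7 promoters, from 2 matches in Cd3g to 6 in Cd3d and Cd8a, and 93.4% of 32851 promoters of the same length hold it. TGTGGT was found once each in Nkg7 and Gzma and in none of the other 5, and 14% of all promoters hold it. CCCNNGGG, a strict form of the motif of the B cell factor EBF, was in 0 of the 7 (11.8% of all promoters). Other forms of that motif were not searched, so these 0 matches do not show that EBF sites are absent. TATAAA was likewise in 0 of the 7 (12.4%). Motifs were counted on both strands, and GGAA and TGTGGT do not share bases in these promoters.

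HFMCD was compared with chow within each genotype, and KO with WT within each diet. On HFMCD, 7 of the 9 genes were called higher than on chow in KO livers and 8 in WT livers, and none was called lower. Of all genes tested, 33.7% were called higher with diet in KO and 29% in WT, and 36% were called lower in KO and 33.6% in WT. The median log2 fold change of the 9 genes was 1.42 in KO and 1.53 in WT, against -0.02 and -0.05 over all genes. Without Cd8a the counts were 6 of 8 in KO and 7 of 8 in WT, and over all 9 genes the WT count was 5 without HFMCD replicate 4. KO differed from WT in 0 of the 9 genes on either diet (2.17% of all genes called on chow and 0.319% on HFMCD). Diet went together with age and with separate ranges of animal numbers, so these cannot be told apart. In whole tissue, more cells of a type and more RNA per cell cannot be told apart either.

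**Figure D1:**
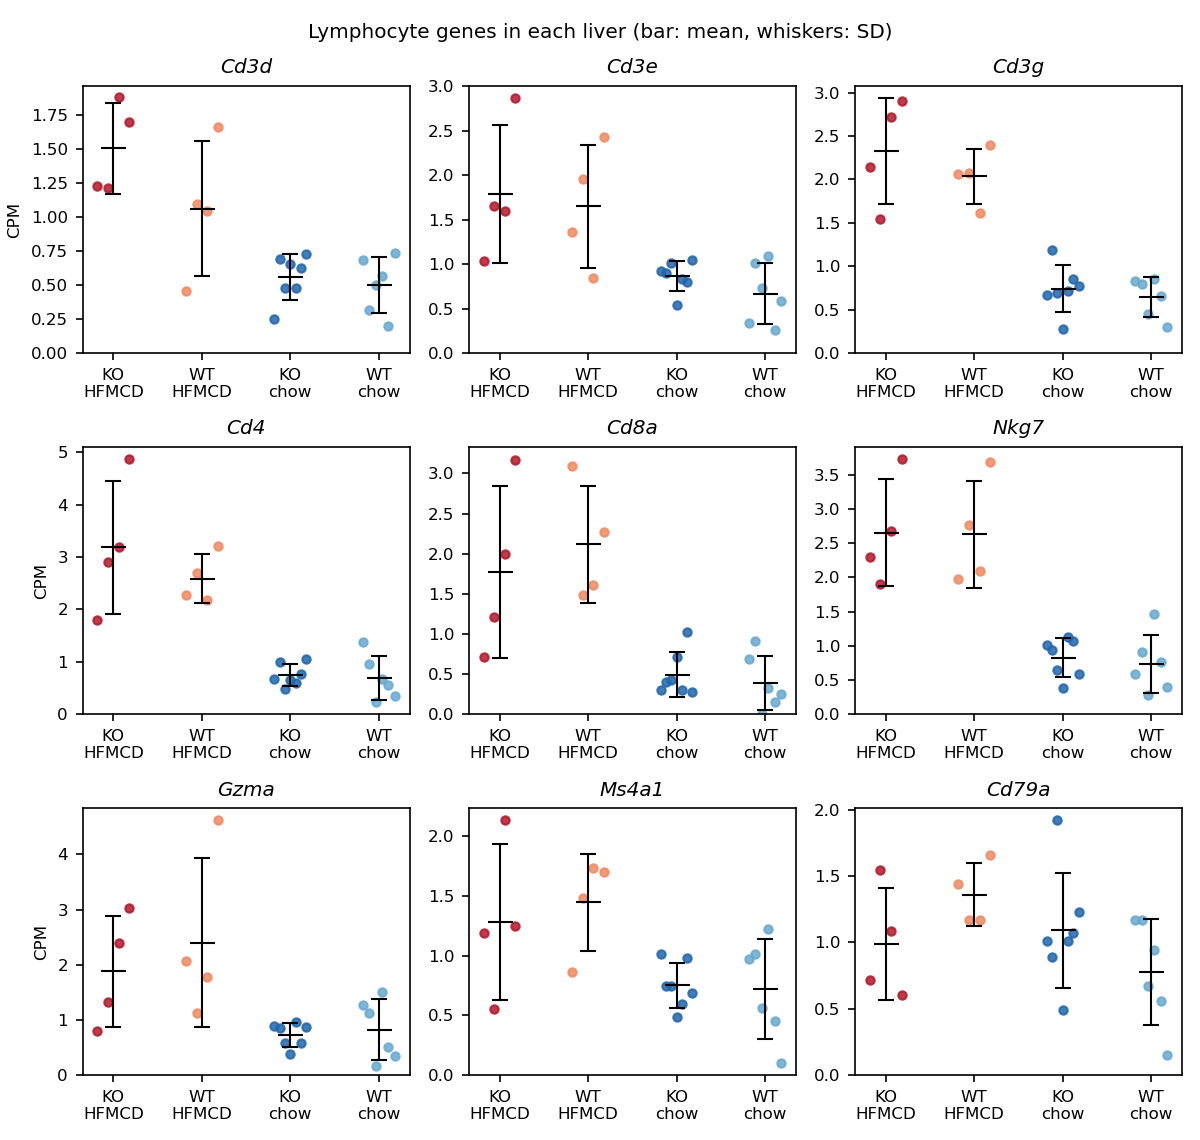
CPM of each gene (vertical axis, linear, each panel with its own range) in each of the 21 livers, by group, where points are livers, horizontal bars are means and whiskers are SD. The HFMCD livers stand above the chow livers for Cd3g, Cd4 and Nkg7 in both genotypes, while Cd79a spans 0.15 to 1.92 CPM with no such separation.

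Cd3d, Cd3e and Cd3g encode the delta, epsilon and gamma chains of the CD3 complex, which carries the signal of the T cell antigen receptor. Cd3g (ENSMUSG00000002033.14) had 54, 42, 75 and 77 counts in KO livers on HFMCD, against 5 to 24 (median 16) in the 7 KO livers on chow. In WT it had 50, 53, 40 and 59 counts on HFMCD, against 6 to 18 (median 14) on chow. No HFMCD liver overlapped a chow liver of its genotype, and the 4 WT livers on HFMCD lay closer together than the 4 KO livers. On the log2 scale Cd3g rose by 1.64 in KO (SE 0.28, edgeR adjusted p = 1.7e-05) and by 1.64 in WT (SE 0.30, edgeR adjusted p = 5.1e-05).

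Cd3d (ENSMUSG00000032094.8) had 31, 33, 52 and 45 counts in KO livers on HFMCD, against 6 to 16 (median 12) on chow. In WT livers it had 11, 28, 26 and 41 counts on HFMCD, against 4 to 15 (median 10.5) on chow. The KO groups did not overlap, while WT replicate 1 on HFMCD lay within the WT chow range. The log2 fold change was 1.42 in KO (SE 0.33, edgeR adjusted p = 0.00052) and 1.07 in WT (SE 0.35, edgeR adjusted p = 0.011). In WT, an exact two-sided permutation test of log2 CPM gave p = 0.057, and without HFMCD replicate 4 the log2 fold change was 0.78 (edgeR adjusted p = 0.079).

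Cd3e (ENSMUSG00000032093.7) had 26, 45, 44 and 76 counts in KO livers on HFMCD, against 10 to 23 (median 18) on chow. The WT livers had 33, 50, 21 and 60 counts on HFMCD, against 5 to 23 (median 12.5) on chow. After scaling, the lowest HFMCD liver of each genotype lay within the chow range. Cd3e rose by 1.04 in KO (SE 0.33, edgeR adjusted p = 0.0081) and by 1.30 in WT (SE 0.36, edgeR adjusted p = 0.0030) on the log2 scale. KO replicate 4 on HFMCD was the highest of all livers, and without it the KO value was 0.72 (edgeR adjusted p = 0.077).

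Cd4 (ENSMUSG00000023274.14, chr6:124864692-124888221) encodes the co-receptor of helper and regulatory T cells, and is also made by some dendritic cells. It had 45, 79, 88 and 129 counts in KO livers on HFMCD, against 9 to 23 (median 16) on chow. Counts in WT livers were 55, 69, 54 and 79 on HFMCD, against 4 to 28 (median 12.5) on chow. Neither genotype showed an overlap between diets. The rise was 2.08 in KO (SE 0.32, edgeR adjusted p = 3.9e-06) and 1.90 in WT (SE 0.34, edgeR adjusted p = 3.9e-05) on the log2 scale, with the smallest p of the 9 genes in each genotype.

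Cd8a (ENSMUSG00000053977.13, chr6:71373427-71379173) encodes the alpha chain of the co-receptor of killer T cells and is also made by some dendritic cells. It had 18, 33, 55 and 84 counts in KO livers on HFMCD, against 5 to 23 (median 8) on chow. WT livers held 75, 38, 40 and 56 counts on HFMCD, against 0 to 17 (median 6) on chow. The 0 of replicate 3 allows up to 3 counts, or 0.168 CPM. KO replicate 1 on HFMCD lay within the KO chow range, and the WT groups did not overlap. The log2 fold change was 1.84 in KO (SE 0.49, edgeR adjusted p = 0.0020) and 2.43 in WT (SE 0.52, edgeR adjusted p = 0.00034). Counts of Cd8a per 100 counts of Cd4 were 55.7 in KO and 81.3 in WT livers on HFMCD, and 65.4 in KO and 56.1 in WT livers on chow. The exact 95% interval was 46.4 to 66.7 for KO and 67.4 to 98.0 for WT on HFMCD, covering counting error only, while single livers ran from 40.0 to 65.1 in KO and from 55.1 to 136 in WT.

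Nkg7 (ENSMUSG00000004612.9, chr7:43437073-43438249) encodes a granule membrane protein needed for degranulation of cytotoxic cells. It had 58, 52, 74 and 99 counts in KO livers on HFMCD, against 7 to 24 (median 19) on chow. In WT livers it had 48, 71, 52 and 91 counts on HFMCD, against 5 to 31 (median 13.5) on chow. All HFMCD livers lay above the chow livers of their genotype. Nkg7 rose by 1.68 in KO (SE 0.32, edgeR adjusted p = 6.9e-05) and by 1.83 in WT (SE 0.34, edgeR adjusted p = 6.1e-05) on the log2 scale.

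Gzma (ENSMUSG00000023132.8, chr13:113093825-113100981) encodes granzyme A, a serine protease of those granules. It had 20, 36, 66 and 80 counts in KO livers on HFMCD, against 7 to 21 (median 16) on chow. The WT livers had 50, 29, 44 and 114 counts on HFMCD, against 3 to 32 (median 15.5) on chow. The lowest HFMCD liver overlapped the chow range in both genotypes, and replicate 4 was the highest HFMCD liver in both. The rise was 1.36 in KO (SE 0.44, edgeR adjusted p = 0.0093) and 1.53 in WT (SE 0.46, edgeR adjusted p = 0.0058) on the log2 scale. It was 1.05 without KO replicate 4 (edgeR adjusted p = 0.060) and 1.004 without WT replicate 4 (edgeR adjusted p = 0.068).

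Ms4a1 (ENSMUSG00000024673.9, chr19:11249675-11266241) encodes CD20, a membrane protein of B cells from the pre-B stage until they become plasma cells. It had 30, 15, 59 and 33 counts in KO livers on HFMCD, against 9 to 24 (median 15) on chow. Counts in WT livers were 21, 38, 43 and 42 on HFMCD, against 2 to 26 (median 14.5) on chow. Both genotypes overlapped between diets. On the log2 scale Ms4a1 rose in WT by 0.995 (SE 0.40, edgeR adjusted p = 0.036). The KO value was 0.76 (SE 0.39, edgeR adjusted p = 0.087). The WT call was the least secure of the 15. An exact two-sided permutation test gave p = 0.052, and the call was lost when any 1 of 6 libraries was left out. These were WT replicates 2, 3 and 4 on HFMCD (0.99, 0.90 and 0.91) and WT replicates 3, 5 and 6 on chow (0.93, 0.93 and 0.81), with edgeR adjusted p from 0.052 to 0.088. It was also lost without the 4 Dmbt1-rich chow livers (0.80, edgeR adjusted p = 0.13). In KO, Ms4a1 passed the threshold without HFMCD replicate 2 (1.01, edgeR adjusted p = 0.027).

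Cd79a (ENSMUSG00000003379.7, chr7:24897381-24902197) encodes the alpha signalling chain of the B cell antigen receptor. It had 18, 42, 30 and 16 counts in KO livers on HFMCD, against 9 to 36 (median 24) on chow. WT livers held 35, 30, 29 and 41 counts on HFMCD, against 3 to 24 (median 16) on chow. Groups overlapped in both genotypes after scaling. The log2 fold change was -0.14 in KO (SE 0.37, edgeR adjusted p = 0.75) and 0.80 in WT (SE 0.38, edgeR adjusted p = 0.070). The WT value passed the threshold without chow replicate 1 (0.96, edgeR adjusted p = 0.043) or chow replicate 2 (1.0003, edgeR adjusted p = 0.036).

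By overlap alone, 4 of the 9 genes had every HFMCD liver above every chow liver in KO (Cd3d, Cd3g, Cd4 and Nkg7) and 4 in WT (Cd3g, Cd4, Cd8a and Nkg7). Without Cd8a the counts were 4 of 8 in KO and 3 of 8 in WT. The same held for 25.7% of all genes in KO and 23.1% in WT. Exact permutation p-values of the called genes ran from 0.0030 to 0.015 in KO and from 0.0048 to 0.057 in WT, where 0.0030 and 0.0048 are the smallest that these group sizes allow.

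**Figure D2:**
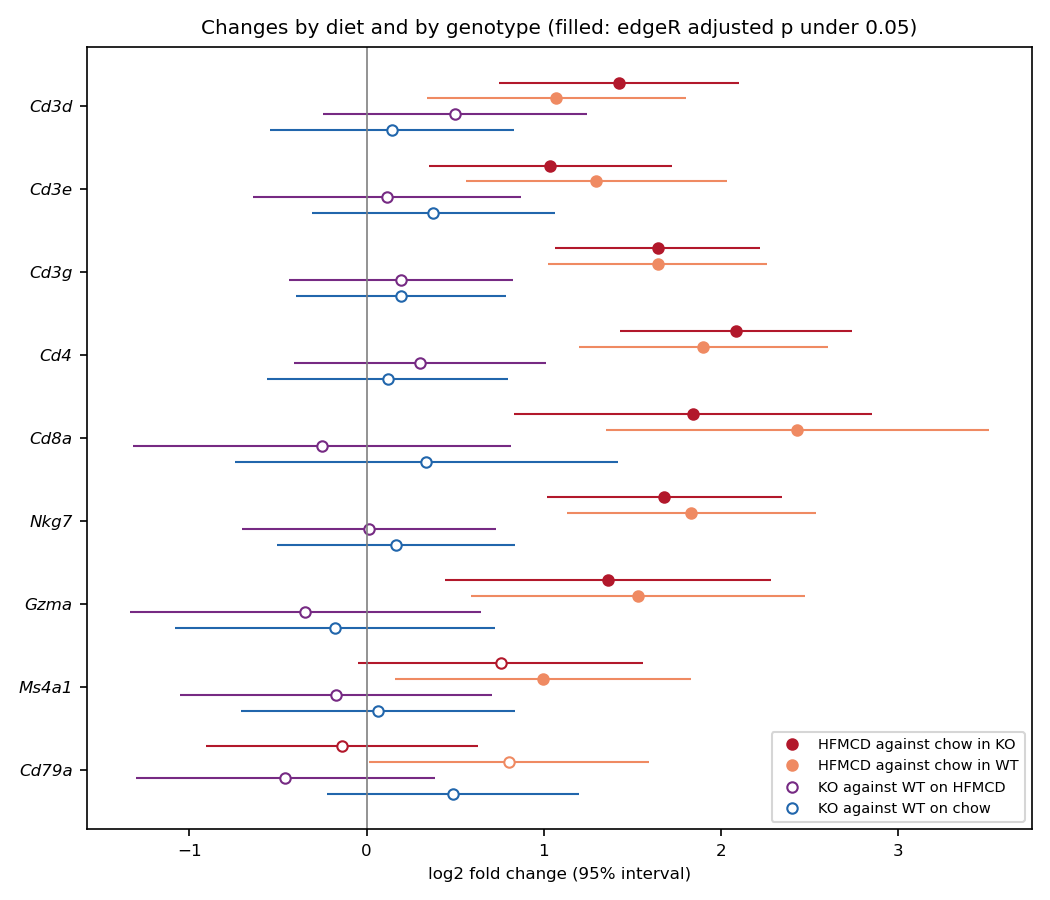
Log2 fold change (horizontal axis) of each gene with its 95% interval for 4 comparisons, where filled points were called by edgeR. The diet changes of the T and NK genes lie between 1.04 and 2.43, whereas the interval of each KO change includes 0.

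KO was then compared with WT on the same diet. On HFMCD the largest positive log2 fold change was that of Cd3d and the largest negative one that of Cd79a. Cd3d averaged 1.51 CPM ± 0.34 in KO and 1.06 CPM ± 0.49 in WT (SD, n = 4 each), and Cd79a averaged 0.99 CPM ± 0.42 in KO and 1.36 CPM ± 0.24 in WT. These log2 fold changes were 0.50 (95% interval -0.24 to 1.24, edgeR adjusted p = 0.70) and -0.46 (-1.30 to 0.39, edgeR adjusted p = 0.78). Values of KO over WT were positive for 5 of the 9 genes (51.1% of all genes), with a median of 0.01. Cd8a, at 1.77 CPM ± 1.07 in KO and 2.11 CPM ± 0.74 in WT, had an interval from -1.32 to 0.81 on the log2 scale, and Gzma one from -1.33 to 0.64.

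On chow 8 of the 9 log2 fold changes of KO over WT were positive, with a median of 0.17, against 0.01 over all genes, of which 52.1% were positive. The lowest was -0.18 for Gzma and the highest 0.49 for Cd79a. Cd79a averaged 1.09 CPM ± 0.43 in KO (SD, n = 7) and 0.78 CPM ± 0.40 in WT (SD, n = 6), with an interval of the log2 fold change from -0.23 to 1.199 (edgeR adjusted p = 0.49). Cd3e averaged 0.87 CPM ± 0.17 in KO and 0.67 CPM ± 0.34 in WT, a log2 fold change of 0.38 (-0.31 to 1.06, edgeR adjusted p = 0.60). Groups overlapped for all 9 genes on both diets (0.236% of all genes stood wholly higher in KO on chow and 4.96% on HFMCD). With edgeR, 0 of the 9 genes had an unadjusted p under 0.05 on either diet, against 2806 of all genes on chow and 1562 on HFMCD, and DESeq2 and limma-voom also called 0 of the 9.

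The KO effect on HFMCD minus that on chow was called for 0 of the 9 genes (0% of all genes with edgeR). None of the 9 had an unadjusted p under 0.05, against 1581 of all genes, and DESeq2 and limma-voom called none of the 9. Cd79a had the smallest p, with a difference of -0.94 on the log2 scale (95% interval -2.05 to 0.16, edgeR adjusted p = 0.59). The intervals for Cd8a (-2.11 to 0.93) and Gzma (-1.52 to 1.18) were wider than that for Cd3d (-0.66 to 1.37).

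Levels of different genes were compared as CPM per kilobase of merged exons. Nkg7 and Gzma were the highest in KO on HFMCD (2.91 ± 0.86 and 1.87 ± 1.002 CPM per kilobase), in WT on HFMCD (2.88 ± 0.86 and 2.38 ± 1.52) and in WT on chow (0.80 ± 0.47 and 0.81 ± 0.55). In KO on chow Nkg7 (0.90 ± 0.31) was followed by Cd79a (0.75 ± 0.30) and Gzma (0.72 ± 0.21). The CD3 genes, Cd4, Cd8a and Cd79a followed on HFMCD, between 0.40 and 0.93 CPM per kilobase. Ms4a1 was the lowest in 3 groups, at 0.21 ± 0.11 in KO and 0.23 ± 0.07 in WT on HFMCD and 0.12 ± 0.03 in KO on chow, and in WT on chow Cd8a was lowest (0.11 ± 0.09). Most neighbours in these orders differed by less than the larger of their SDs. The exceptions were Nkg7 over Gzma, Gzma over Cd3d and Cd3e over Ms4a1 in KO on HFMCD, Cd79a over Cd4 and Cd3e over Ms4a1 in WT on HFMCD, and Gzma over Cd3d in KO on chow.

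The rest of each lineage was followed through lists of other genes. Of 24 tested T cell genes, 20 rose with diet in KO and 18 in WT, and 0 fell. Like Cd8a, many of these genes failed the filter on low counts on the chow livers alone. A count over the genes that passed on the livers of each diet alone was added after the data were seen. It left 13 T cell genes, of which 10 rose in each genotype, while 33.3% of all 13299 such genes were called higher in KO and 28.6% in WT. Il7r, the receptor of the survival cytokine interleukin 7, averaged 14.1 CPM ± 2.73 on HFMCD (SD, n = 4) and 1.74 CPM ± 0.33 on chow (SD, n = 7) in KO livers, with a log2 fold change of 3.02 (edgeR adjusted p = 1.6e-12), and it rose by 2.81 in WT (edgeR adjusted p = 2.7e-11). Trac, the constant region of the alpha chain of the T cell receptor, failed the filter on the chow livers alone. It had 20 to 80 counts in KO livers on HFMCD, against 2 to 10 on chow, and 28 to 54 in WT livers on HFMCD, against 5 to 12 on chow. Pdcd1, which encodes the inhibitory receptor PD-1 and was likewise below the filter on chow, had 77 counts over the 4 KO livers on HFMCD, against 6 over the 7 on chow, and 36 over the 4 WT livers on HFMCD, against 2 over the 6 on chow. The transcription factor gene Tcf7 was at 0.21 in KO and 0.30 in WT and the kinase gene Zap70 at -0.05 and 0.13, none of them called. Tcf7 and Zap70 were chosen for mention after their values were seen.

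Of 17 tested NK and cytotoxic genes, 12 rose with diet in KO and 13 in WT, and 0 fell. Of the 17, 8 passed the filter on each diet alone, and 6 of the 8 rose in KO and 7 in WT. The share of all such genes that rose was 33.3% in KO and 28.6% in WT. Ccl5, a chemokine of activated T and NK cells, averaged 11.3 CPM ± 5.76 on HFMCD and 1.38 CPM ± 0.32 on chow in KO, with a log2 fold change of 3.02 (edgeR adjusted p = 4.2e-09), and it rose by 2.35 in WT (edgeR adjusted p = 6.0e-07). Il2rb, the shared beta chain of the interleukin 2 and 15 receptors, rose by 1.22 in KO and 1.24 in WT. Gzmk, encoding granzyme K and below the filter on chow, had 116 counts over the 4 KO livers on HFMCD, against 1 over the 7 on chow. In WT livers Gzmk had 53 counts over the 4 on HFMCD, against 1 over the 6 on chow, and every HFMCD liver had at least 11. The perforin gene Prf1 rose in KO (1.06, edgeR adjusted p = 0.0069), and its value in WT was 0.41 (edgeR adjusted p = 0.30). Its difference of the KO effect between diets was not called (0.65, edgeR adjusted p = 0.70). Prf1 was chosen after its values were seen. The WT count of 13 was 7 without HFMCD replicate 4.

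Of 18 tested B cell genes, 8 rose and 2 fell with diet in KO, and 11 rose and 0 fell in WT. Of the 16 that passed the filter on each diet alone, 6 rose and 2 fell in KO, and 9 rose in WT. The share that rose in KO was 37.5%, near the 33.3% of all genes that passed in this way. In WT it was 56.2%, against 28.6%. The share that fell in KO was 12.5%, against 34.9%. Cd22, an inhibitory co-receptor of B cells, averaged 7.71 CPM ± 0.75 on HFMCD and 2.22 CPM ± 0.69 on chow in KO, with a log2 fold change of 1.78 (edgeR adjusted p = 5.8e-07), and it rose by 2.03 in WT (edgeR adjusted p = 3.0e-07). Cd72 rose by 1.93 in KO and 2.35 in WT. The B cell factor gene Pax5 fell by 0.85 in KO (edgeR adjusted p = 0.049) and was at 0.20 in WT (edgeR adjusted p = 0.66). Cd79b, the partner of Cd79a, was at 0.55 in KO (edgeR adjusted p = 0.16) and rose by 0.83 in WT (edgeR adjusted p = 0.046). For neither gene was the difference of the KO effect between diets called. It was -1.05 for Pax5 (edgeR adjusted p = 0.52) and -0.28 for Cd79b (edgeR adjusted p = 0.91). Pax5 and Cd79b were chosen after their values were seen. Of the 2 falls in KO, 1 was left under RLE or upper-quartile scaling, without a low-count filter, and without KO replicate 1, 2 or 4 on HFMCD or KO replicate 1, 2, 3, 5 or 6 on chow. In WT, 1 gene was called lower with limma-voom, with a filter of at least 1 CPM in 4 libraries, and without chow replicate 6. Exons of Cd22, Cd72 and Pax5 overlap genes of the opposite strand.

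Of 10 tested plasma cell genes, 6 rose with diet in KO and 4 in WT, and 0 fell. Of the 7 that passed the filter on each diet alone, 3 rose in each genotype (42.9%). Of all genes that passed in this way, 33.3% rose in KO and 28.6% in WT. Prdm1, a factor of antibody-secreting cells that effector T cells and macrophages also use, rose by 2.70 in KO and 2.54 in WT. Igha, the constant region of immunoglobulin A, rose by 1.46 in KO and 1.41 in WT. The WT count was 2 without HFMCD replicate 1. Genes of immunoglobulin constant regions resemble each other, so the counting could have split their reads. Taken over the T, NK, B and plasma cell lists, 69 of 80 genes were tested. With edgeR, 0 of the 69 were called between KO and WT, while 6 had an unadjusted p under 0.05 on HFMCD and 7 on chow. DESeq2 called 0 on HFMCD and 1 lower on chow, and limma-voom called 0 on both.

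**Figure D3:**
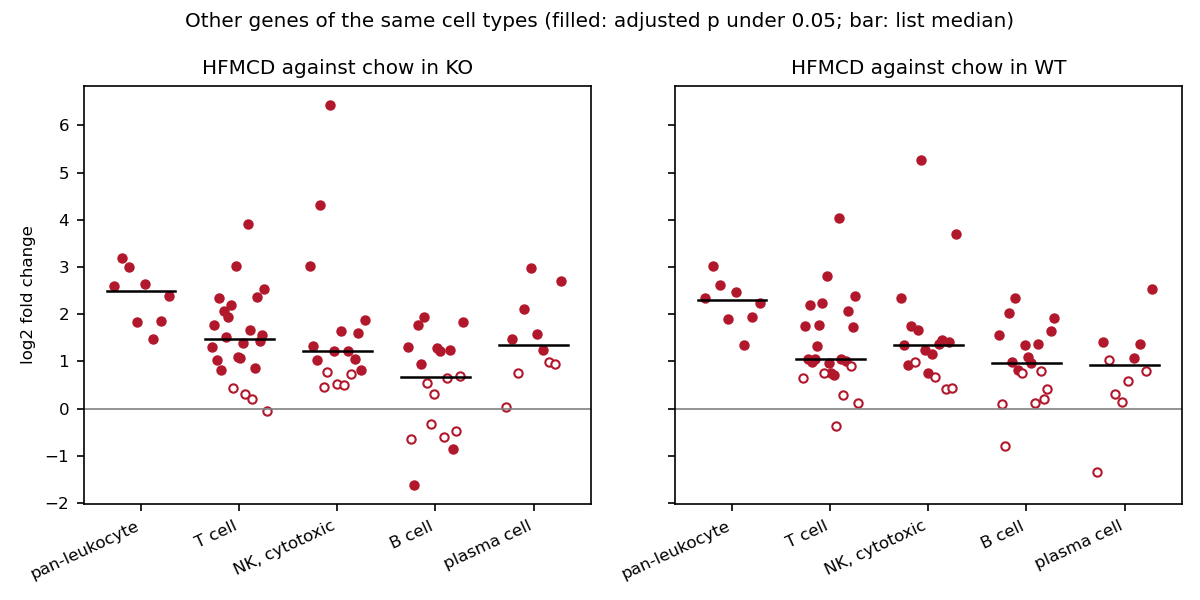
Log2 fold change of HFMCD over chow (vertical axis) for each tested gene of the pan-leukocyte, T, NK, B and plasma cell lists, in KO (left) and WT (right), where filled points were called by edgeR and bars are list medians. All 8 pan-leukocyte genes rose in both genotypes, and the B cell genes spread to both sides of 0 in KO.

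Other leukocyte lists moved with the same diet contrast. All 8 pan-leukocyte genes rose in both genotypes, with a median log2 fold change of 2.49 in KO and 2.30 in WT. Of the genes of recruited macrophages and monocytes 10 of 10 rose (median 3.87 in KO and 3.42 in WT), of Kupffer cells 8 of 10 and of neutrophils 7 of 7, in each genotype. Over all genes tested, 33.7% were called higher in KO and 29% in WT. Over genes that passed the filter on each diet alone, 8 of 8 macrophage and 3 of 3 neutrophil genes rose in each genotype. Of all genes that passed in this way, 33.3% rose in KO and 28.6% in WT. Of 9 hepatocyte genes 8 were called lower in KO and 7 in WT, beside 36% and 33.6% of all genes. Summed erythroid genes ran from 25.8 to 59.5 CPM in KO and from 43.1 to 71.1 CPM in WT on HFMCD. On chow the sum ran from 22.9 to 173 CPM in KO and from 11.7 to 84.0 CPM in WT. It includes Alas2, which averaged 25.8 CPM on HFMCD and 5.47 CPM on chow in WT, and 17.9 and 5.99 CPM in KO. Alas2 was called higher with diet in both genotypes. It was the only 1 of 5 tested erythroid genes with a positive value, so the sum does not measure blood left in the tissue alone. Of 10 genes of lymphoid tissue 4 were tested, of which 1 rose and 1 fell in KO, and 2 rose and 1 fell in WT. Ltb, encoding lymphotoxin beta, rose by 1.87 in KO (edgeR adjusted p = 4.1e-06) and by 1.70 in WT (edgeR adjusted p = 3.7e-05), and Cxcr5, the receptor of Cxcl13 protein, rose in WT (1.14, edgeR adjusted p = 0.020) but failed the filter on chow alone. Ccl19 and Glycam1 had 0 counts in all 21 livers, and so had Ccl21a, whose near-identical copies can lose reads in counting. Cxcl13, which attracts B cells, averaged 1.18 CPM ± 0.46 on HFMCD and 6.77 CPM ± 1.62 on chow in KO, and fell by 2.51 in KO (edgeR adjusted p = 0.0023) and by 2.54 in WT (edgeR adjusted p = 0.0019) on the log2 scale. Whether any of these lists has a part in the changes of the 9 genes was not tested.

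Beside the rise of the pan-leukocyte genes, the lymphocyte counts were set against Ptprc, which encodes the pan-leukocyte protein CD45. Ptprc averaged 55.5 CPM ± 13.0 in KO and 54.1 CPM ± 6.45 in WT on HFMCD (SD, n = 4 each), and 15.2 CPM ± 2.88 in KO (SD, n = 7) and 14.1 CPM ± 2.88 in WT (SD, n = 6) on chow. Counts of the CD3 genes per 100 of Ptprc were 10.1 in KO (exact 95% interval 9.30 to 11.02) and 8.78 in WT (7.97 to 9.64) on HFMCD, and 14.0 in KO (12.4 to 15.8) and 12.8 in WT (11.1 to 14.8) on chow. For Nkg7 with Gzma they were 8.19 in KO (7.45 to 8.99) and 9.28 in WT (8.45 to 10.2) on HFMCD, and 10.1 in KO (8.74 to 11.6) and 11.1 in WT (9.50 to 12.9) on chow. These intervals cover counting error only, and single livers overlapped between diets for both measures in both genotypes.

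The B cell pair showed the widest gap. Counts of Ms4a1 with Cd79a per 100 of Ptprc were 4.10 in KO (3.60 to 4.67) and 5.19 in WT (4.58 to 5.85) on HFMCD, and 11.98 in KO (10.5 to 13.6) and 10.6 in WT (9.01 to 12.3) on chow. Single KO livers ran from 2.55 to 5.50 on HFMCD and from 7.69 to 23.7 on chow, without overlap. Single WT livers ran from 4.49 to 5.86 on HFMCD and from 1.89 to 14.6 on chow, where replicate 6, with 2 counts of Ms4a1 and 3 of Cd79a, was the lowest. Against the CD3 genes, the B cell pair had 40.5 counts per 100 in KO (34.7 to 47.1) and 59.1 in WT (50.8 to 68.7) on HFMCD, and 85.4 in KO (72.2 to 101) and 82.4 in WT (67.2 to 101) on chow. Ptprc counts come from all leukocytes, macrophages included, so these ratios describe the mixture of transcripts and not shares of cells.

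**Figure D4:**
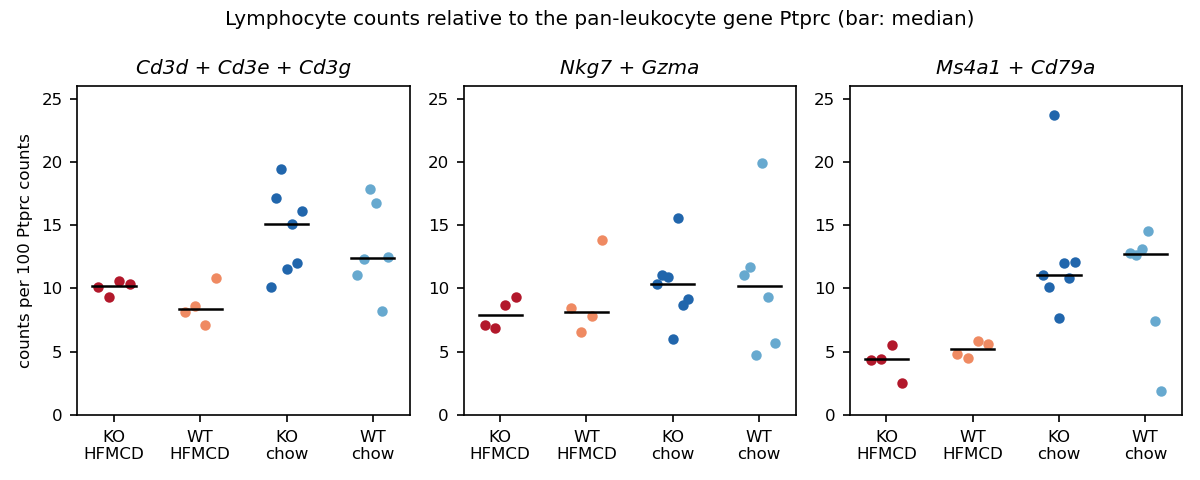
Counts of 3 gene groups per 100 counts of Ptprc (vertical axis) in each liver, where bars are medians of the group. The B cell pair lies between 2.55 and 5.86 in the 8 HFMCD livers and between 1.89 and 23.7 in the 13 chow livers.

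Within groups, single livers differed in several genes at once. By CPM, KO replicate 4 on HFMCD was the highest of its group for 6 genes (Cd3e, Cd3g, Cd4, Cd8a, Nkg7 and Gzma) and WT replicate 4 on HFMCD for 7 (the CD3 genes, Cd4, Nkg7, Gzma and Cd79a). On chow, KO replicate 4 was the lowest of its group for 6 genes (Cd3e, Cd3g, Nkg7, Gzma, Ms4a1 and Cd79a). WT replicate 3 on chow was the lowest for Cd4, Cd8a, Nkg7 and Gzma and WT replicate 6 for Cd3g, Ms4a1 and Cd79a, while WT replicate 4 was the highest for 5 genes (Cd3e, Cd3g, Nkg7, Gzma and Ms4a1). After the group means were subtracted, Pearson correlations of log2 CPM between the 9 genes over 21 livers ran from -0.17 (Cd3d with Cd79a) to 0.78 (Cd4 with Gzma). Among 12946 genes with at least 1 CPM on average, those most alike to Cd3e included Zfp994 (0.79), Grap2 (0.71) and Ccl5 (0.70). For Nkg7 they were Adgre4 (0.84), Rinl (0.83), Samsn1 (0.83) and Cd300ld (0.82). For Cd79a they were Klhdc7a (0.86), Ssbp4 (0.85), 1810058I24Rik (0.84) and Rab11fip4 (0.82). Points of these correlations share the library, its depth and its tissue piece, and they describe these 21 livers only.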

How the data were processed

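The authors deposited raw read counts per gene for each liver, 1 table per sample, with no normalization recorded. The submitters' processing notes name GRCm38 as build, and as tools STAR 2.6.1d, CASAVA 2.17 and featureCounts 1.6.1, with no role stated. The annotation release and strand setting are not given in the sources used here. All 55418 symbols matched GENCODE M21, which gave the positions, and promoters came from RefSeq.

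The tests used edgeR 4.0.16 under R 4.3.3. After filterByExpr on the 4 groups 15677 genes were left, libraries were scaled by TMM, and 1 quasi-likelihood model with 4 group means was fitted to 21 libraries. Adjusted p-values are Benjamini-Hochberg values over all genes tested. CPM used the TMM-scaled total of tested genes, and log2 CPM a prior count of 2. SE is the size of the log2 fold change over the root of its F value. The edgeR fit was tested on simulated counts, for KO against WT on HFMCD and for HFMCD against chow in WT. Intervals of ratios are exact (Clopper-Pearson) and, like limits from a count of 0, cover counting error only, as reads are not molecules. The edgeR p-values set a group difference against the spread between livers, which the fit estimated over all 21 libraries. Permutation p-values are the share of assignments of livers to the compared groups that give a difference at least as large.

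The 9 genes and 19 other lists were chosen with earlier results of these data known. Named list genes are up to 4 called genes with the smallest p per list and comparison, and others are said to be chosen later. Some genes that these rules name are not reported here. Alternatives were DESeq2 1.42.0, limma-voom (limma 3.58.1), RLE and upper-quartile scaling, other filters, separate fits for each pair of groups, and fits with libraries left out. Counts over genes that pass the filter on each diet alone were added after the data were seen.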

Additional observations from a re-analysis of the deposited data

How the results depend on the processing

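Of 15 called values of the 9 genes, none changed direction under any alternative. Outside leave-one-out fits 118 of 120 such values kept their call. The exceptions were Gzma in KO by diet with limma-voom (1.03, adjusted p = 0.063) and Ms4a1 in WT without the 4 Dmbt1-rich livers (0.80, adjusted p = 0.13). With 1 library left out 147 of 157 kept it. The count of genes called by diet ran from 5 to 8 in KO and from 5 to 9 in WT when 1 library was left out, and was 6 to 8 in KO and 7 or 8 in WT under the other alternatives. It stayed at 0 for each KO comparison. A fit to the compared groups only called Ms4a1 in KO (0.78, adjusted p = 0.047). It gave no value for Cd8a between KO and WT on chow, where the gene failed the filter, nor for the difference between diets. With at least 1 CPM in 4 libraries, 8 NK genes were tested, of which 6 were called by diet in KO and 8 in WT. All 72 group means under other scalings moved by less than 1 SD.

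Signs changed only for values that were not called. Without the Dmbt1-rich livers, KO over WT on chow was -0.24 for Cd4, -0.0048 for Nkg7 and -0.20 for Ms4a1, and the difference between diets was 0.0029 for Cd3e, 0.017 for Nkg7, 0.32 for Gzma and 0.030 for Ms4a1. With limma-voom, KO over WT on HFMCD was -0.055 for Cd3e and -0.032 for Nkg7, that on chow 0.011 for Gzma, and the difference -0.088 for Cd4. The difference for Cd3g was -0.0066 with RLE scaling and -0.0085 with DESeq2, and without a filter Nkg7 on HFMCD was -0.00053. With 1 library left out, KO over WT on chow ran from -0.0026 to 0.30 for Cd3d, -0.055 to 0.44 for Cd4, -0.38 to 0.11 for Gzma and -0.16 to 0.30 for Ms4a1. On HFMCD it ran from -0.21 to 0.36 for Cd3e, -0.69 to 0.0065 for Cd8a, -0.20 to 0.22 for Nkg7, -0.67 to 0.19 for Gzma and -0.54 to 0.076 for Ms4a1. The difference ran from -0.14 to 0.15 for Cd3g, -0.14 to 0.38 for Cd4, -0.51 to 0.051 for Nkg7, -0.49 to 0.36 for Gzma and -0.60 to 0.011 for Ms4a1, and the diet value of Cd79a in KO from -0.43 to 0.067. The cause was not tested. No paired analysis was possible because the replicate numbers only name the livers. At counts of 0 to 129, the 95% intervals of the KO effect on the log2 scale reached from -1.33 to 1.24 over the 9 genes on HFMCD and from -1.08 to 1.42 on chow. These widths come from counting error and the spread between livers together, and their parts were not separated.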

Other observations

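Genes of signals that draw lymphocytes moved with diet in both directions. Of 12 tested chemokines and receptors of this kind, 9 rose and 2 fell on HFMCD in KO, and 10 rose and 2 fell in WT. Cxcl13 was among those that fell. Of the 11 that passed the filter on each diet alone, 9 rose and 2 fell in each genotype. Among all genes passing in this way, 33.3% rose and 34.9% fell in KO, and 28.6% rose and 32.7% fell in WT. Cxcl16, the ligand of the receptor CXCR6 of liver-resident T and NK cells, averaged 42.8 CPM ± 2.49 on HFMCD (SD, n = 4) and 9.68 CPM ± 1.80 on chow (SD, n = 7) in KO livers, with a log2 fold change of 2.14 (edgeR adjusted p = 2.4e-12), and it rose by 2.07 in WT (edgeR adjusted p = 1.9e-11). Exons of Cxcl16 overlap Zmynd15 on the other strand. Cxcr6 itself averaged 3.30 CPM ± 1.25 on HFMCD and 1.03 CPM ± 0.52 on chow in KO, and rose by 1.65 in KO (edgeR adjusted p = 0.00016) and by 1.26 in WT (edgeR adjusted p = 0.0041). Cx3cl1 rose by 2.91 in KO and 2.69 in WT.

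Of 6 tested genes of gamma delta and innate-like T cells, 4 rose and 1 fell with diet in KO, and 2 rose and 1 fell in WT. The shares over all genes were 33.7% higher and 36% lower in KO, and 29% higher and 33.6% lower in WT. Of the 4 that passed the filter on each diet alone, 2 rose and 1 fell in KO, and 1 rose and 1 fell in WT. Trdc, the constant region of the delta chain of the T cell receptor, failed the filter on the livers of each diet alone. It had 8 to 23 counts in KO livers on HFMCD, against 1 to 6 on chow. Trdc rose by 1.70 in KO (edgeR adjusted p = 0.0079) and by 1.30 in WT (edgeR adjusted p = 0.047). Its exons overlap Trdv5 and Gm43434 on the other strand. Zbtb16, a factor of innate-like T cells that other liver cells also use, averaged 9.64 CPM ± 5.44 on HFMCD and 36.3 CPM ± 20.8 on chow in KO, and fell by 1.91 in KO (edgeR adjusted p = 0.017) and by 1.84 in WT (edgeR adjusted p = 0.024). Of 10 dendritic cell genes 8 rose and 2 fell in each genotype, and 3 rose and 2 fell among the 5 that passed the filter on each diet alone. The shares over all genes that passed in this way were 33.3% higher and 34.9% lower in KO, and 28.6% higher and 32.7% lower in WT. Flt3, the receptor of a growth factor of dendritic cells, rose by 2.46 in KO and 2.61 in WT, while Clec9a, a receptor of the cross-presenting subset, fell by 1.95 in KO (edgeR adjusted p = 1.2e-07) and by 1.32 in WT (edgeR adjusted p = 3.3e-05). Xcr1, another receptor of that subset, chosen after its values were seen and below the filter on chow alone, rose by 2.11 in KO and 2.23 in WT. In KO livers Xcr1 had a median of 42.5 counts on HFMCD, against 7 on chow, and Clec9a a median of 57 counts on HFMCD, against 152 on chow.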
